A study of Homo sapiens with 6 samples.

Results

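The 33 genes described here encode lysosomal hydrolases, lysosomal membrane proteins, subunits of the V-ATPase proton pump, and the TFEB family of transcription factors with their Rag and folliculin regulators. Members were found by matching a list of symbols to the deposited count table, which held 63140 genes. All 33 had a row, and 31 of them were among the 16754 genes with enough counts to be tested. The study asked what blocking the lipid kinase PI4KA does to gene expression in HEK293, an established human embryonic kidney cell line. Confluent cells in serum-containing DMEM were exposed to the PI4KA inhibitor GSK-A1 at 100 nM for 24 h (3 libraries), and the labels name DMSO as the treatment of the controls (3 libraries). The titles call the 3 libraries of each group biological replicates. All cells were of the same line, and no second line, dose or time was analysed here.

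Lysosomes break down proteins, lipids and glycans with acid hydrolases, and the V-ATPase pumps protons into the lumen to keep it acidic. The transcription factors TFEB, TFE3 and MITF bind the palindrome CACGTG, and the extended form found in many lysosomal promoters is called the CLEAR element. When nutrients are plentiful, Rag GTPases and folliculin at the lysosomal surface let the kinase mTORC1 phosphorylate these factors, which keeps them in the cytoplasm. Much of this control acts on protein location, which mRNA levels do not measure.

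To show where the members carry this site, promoters of RefSeq (build GRCh38.p14, 250 bases before to 50 bases after the annotated start) were matched by symbol, and 21 members had an entry, 28 entries in all. The 6-base palindrome CACGTG, which reads the same on both strands, occurred in 9 of the 28 entries (32.1%) and in 2548 of 35116 promoters of the same length (7.26%). The 8-base palindrome TCACGTGA, which contains it, occurred in 4 of the 28 (14.3%) and in 344 of all promoters (0.98%). These members are mostly textbook lysosomal genes, so shares above those of all promoters may follow from the choice of members. Any repeated entry of the same symbol and start was dropped for the members but not for all promoters. A match is a description of letters, not a bound site. The 4 members with the 8-base form and NEU1, the called hydrolase with the 6-base form, are shown 5′ to 3′ on the strand of the gene, with the palindrome in capitals.

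ATP6V0D1: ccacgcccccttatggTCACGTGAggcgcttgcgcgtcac
NEU1: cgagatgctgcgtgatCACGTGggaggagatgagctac
CTSA: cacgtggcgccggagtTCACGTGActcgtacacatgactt
LAMP1: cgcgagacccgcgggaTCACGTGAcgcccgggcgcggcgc
MCOLN1: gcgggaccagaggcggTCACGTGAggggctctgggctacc

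The ATP6V0D1 window is chr16:67481194-67481233 (minus strand), with the first base of the palindrome 60 bases upstream of the start. The NEU1 window is chr6:31862926-31862963 (minus strand, 126 bases upstream). The CTSA window is chr20:45891293-45891332 (plus strand, 26 bases upstream) and begins with another CACGTG, left in lower case. The LAMP1 window is chr13:113297194-113297233 (plus strand, 29 bases upstream), and the MCOLN1 window is chr19:7522566-7522605 (plus strand, 42 bases upstream). CTSD, CTSF, FNIP1 and RRAGC also held CACGTG. Among all tested genes, 22.9% were called (differing at an edgeR adjusted p under 0.05), and the counts below are too small to set either set of members apart from that. Of the 9 members with a match, NEU1 was called higher, ATP6V0D1 was called lower, 6 were not called and CTSF was not tested. Of the 12 members with an entry and no match, 3 were called higher (GLA, TFE3 and FLCN), 1 was called lower (GPNMB), 7 were not called and CTSZ was not tested.

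Libraries held 33040178 to 47777233 counts. Levels are in CPM, a gene's share of the library's counts after scaling by edgeR's TMM factors, which lay between 0.993 and 1.004. PI4KA mRNA itself, which an inhibitor of the protein need not alter, stood at 171 to 188 CPM over all 6 libraries (log2 fold change -0.04, edgeR adjusted p = 0.456). GSK-A1 replicate 2 was the GSK-A1 library farthest from the other two in 9068 of 16754 genes (54.1%) and in 20 of the 31 tested members (64.5%), and the plot of fold changes also gives each tested member without it. Of the HEK293 markers, VIM, NEFL, KRT8 and KRT18 were abundant, PAX2 was low at 66 to 131 counts and NEFM had 2 to 13 counts. Of 25 markers of other cell types, 6 had enough counts to be tested and 5 (UMOD, AQP2, SLC34A1, TYR and MLANA) had no count in any library. The summed level of the leukocyte and macrophage markers was 0.63 to 0.77 CPM with DMSO and 0.53 to 1.09 CPM with GSK-A1, and that of the endothelial markers was 0.09 to 0.24 and 0.09 to 0.15 CPM. The kidney tubule markers summed to 20.4 to 22.1 CPM with DMSO and 16.8 to 17.8 CPM with GSK-A1, nearly all of it LRP2, and the fibroblast markers to 9.06 to 10.8 and 7.32 to 8.78 CPM. PAX2 (-0.43), LRP2 (-0.30) and PDGFRA (-0.45) were called lower and VIM (0.17) and KRT8 (0.11) higher, as log2 fold changes in edgeR, and their part in the member results was not tested.

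Of the 31 tested members, 8 were called at an adjusted p under 0.05 (25.8%), beside 22.9% of all tested genes. Higher with GSK-A1 were 5 members, the transcription factor TFE3, the hydrolases GLA, CTSB and NEU1, and the Rag regulator FLCN, beside 12% of all genes called higher. Lower were 3 members, the membrane glycoprotein GPNMB, the hydrolase NAGLU and the V-ATPase subunit ATP6V0D1, beside 10.9% of all genes called lower. The called changes were small, between an increase of 24.5% (TFE3) and a decrease of 33.6% (GPNMB). The median log2 fold change of the 31 members was 0.02, with 19 positive and 12 negative, and that of all tested genes was -0.01. The median size of the change, ignoring its sign, was 0.06 on the log2 scale for the members and 0.12 for all genes. The members were also measured more precisely (median standard error 0.0515, beside 0.0648 for all genes). The 2 sets were not matched for level. The 3 GSK-A1 libraries lay entirely above or entirely below the 3 DMSO libraries for 12 members (38.7%), beside 40.5% of all genes. With upper-quartile scaling the share of all called genes that were higher went from 52.3% to 33.3%, and the members' median went to -0.02. By direction, 3 members were called higher and 4 lower with upper-quartile scaling and with library totals only, in place of 5 and 3. Leaving out DMSO replicate 2 or 3 alone, or GSK-A1 replicate 1 or 3 alone, gave 3 higher and 3 lower. Without DMSO replicate 1 the number of members called was 5, of which 4 were higher and 1 lower (and of all genes 2163, with 2213 without DMSO replicate 2 and 2206 without DMSO replicate 3). Without GSK-A1 replicate 2 it was 9, with a median of -0.0018. In bulk RNA, a change in the share of cells of some kind and a change in RNA per cell cannot be told apart.

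**Figure D1:**
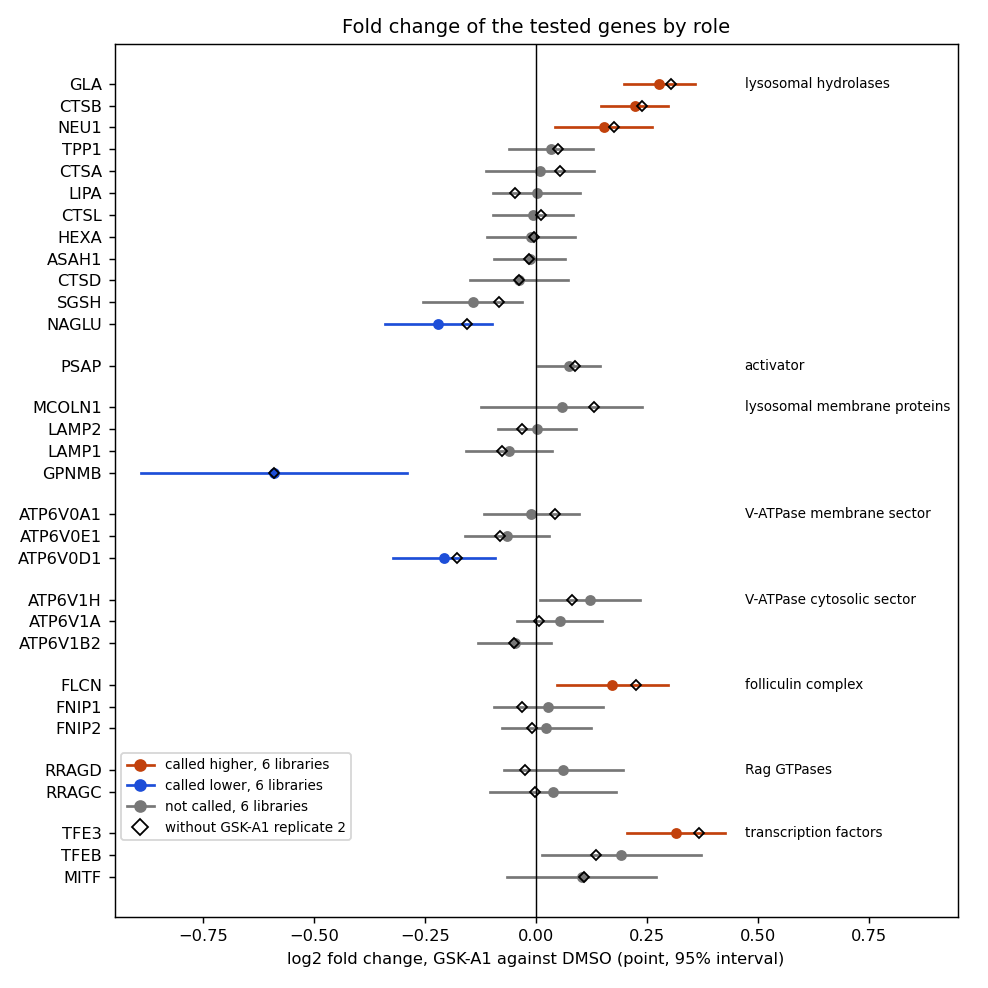
Log2 fold change (GSK-A1 against DMSO, horizontal axis) of the 31 tested members, grouped by role, with the 95% interval as a bar and the value without GSK-A1 replicate 2 as an open diamond. Orange marks the 5 members called higher, blue the 3 called lower and grey the 23 not called, whose points all sit within 0.25 of 0.

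The hydrolases differed widely in level. Per kilobase of the longest annotated transcript, which may not be the transcript these cells use, the DMSO level was 282 ± 13.3 CPM per kb for GLA and 208 ± 0.31 for PSAP (SD, n = 3). CTSB followed at 46.2 ± 0.95 CPM per kb, then LIPA at 28.4 ± 0.65 and CTSL at 26.7 ± 0.81. NEU1 at 7.23 ± 0.38 and HEXA at 5.71 ± 0.14 CPM per kb were the lowest of the tested hydrolases. Cathepsin F (CTSF) had no count in any library, where 3 counts would have been 0.0626 to 0.0905 CPM, and cathepsin Z (CTSZ) had 3, 5 and 1 counts with DMSO and 4, 0 and 3 with GSK-A1. Both were left out of the test. Whether these low counts come from the cells or from how reads were counted was not tested. The plot of levels by library shows the tested members in order.

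**Figure D2:**
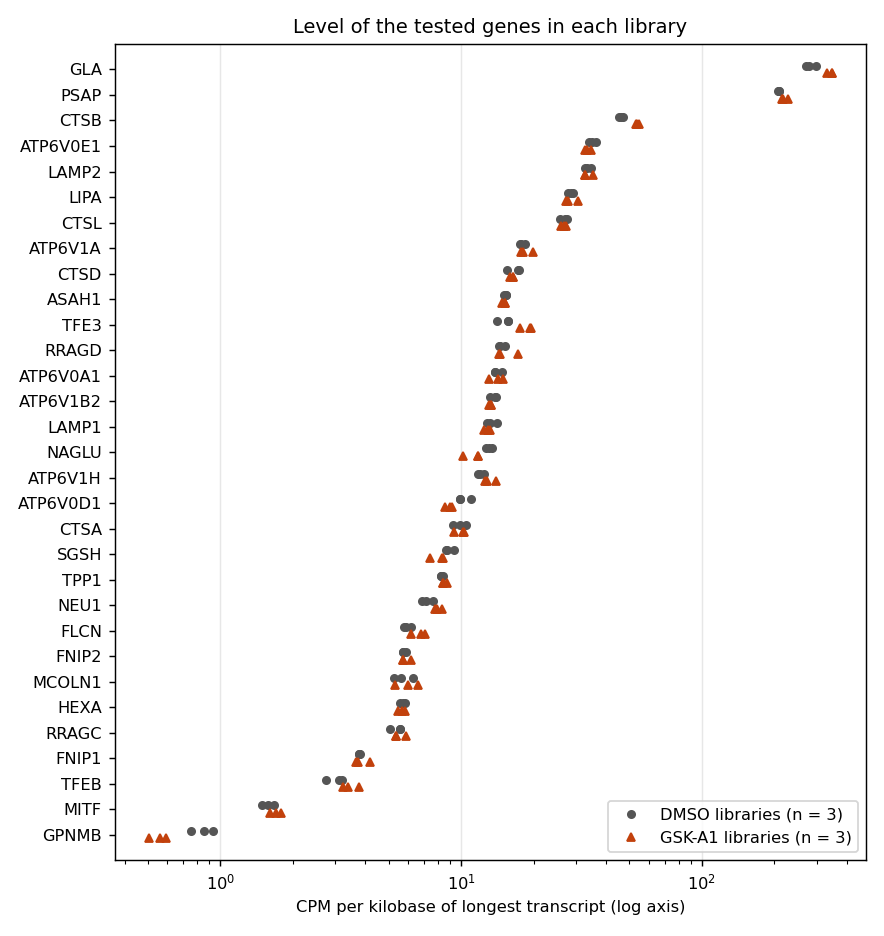
Level of each tested member in each library, with 3 DMSO and 3 GSK-A1 libraries as points. The log axis gives TMM-scaled CPM per kilobase of the longest annotated transcript. GLA and PSAP stand highest, with DMSO means of 282 and 208 CPM per kb, and GPNMB lowest, with 0.844 CPM per kb. For most members the points of both groups lie close together.

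GLA encodes alpha-galactosidase A, which removes terminal galactose from globotriaosylceramide and is deficient in Fabry disease; the gene lies on chromosome X. The DMSO libraries held it at 422, 386 and 395 CPM (replicates 1 to 3, the order used throughout), and the GSK-A1 libraries at 495, 471 and 492 CPM. Every GSK-A1 library was above every DMSO library. Mean GLA mRNA rose from 401 ± 18.9 CPM to 486 ± 13 CPM (SD, n = 3). On the log2 scale the difference was 0.28 ± 0.04 (SE; 95% interval 0.20 to 0.36; edgeR adjusted p = 1.03e-04). Its call held under all 19 alternatives run, with adjusted p of at most 0.00692.

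CTSB encodes cathepsin B, a cysteine protease of the lysosome. Its level was 176, 183 and 179 CPM with DMSO and 213, 205 and 208 CPM with GSK-A1, again with no overlap. CTSB rose by 16.6%, from a mean of 179 ± 3.69 CPM to 209 ± 3.89 CPM, which is 0.22 ± 0.04 in log2 units (edgeR adjusted p = 3.76e-04). The call was lost in 1 of 19 alternatives, the edgeR test against a minimum fold change of 1.1 (adjusted p = 0.0520).

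NEU1, the lysosomal sialidase, trims sialic acid from glycans in a complex with cathepsin A. NEU1 was at 35.3, 31.9 and 32.98 CPM with DMSO and at 38.5, 36.0 and 36.7 CPM with GSK-A1. The groups did not overlap, though DMSO replicate 1 and GSK-A1 replicate 2 lay close together. The log2 fold change was 0.15 ± 0.05 (edgeR adjusted p = 0.0431), and the call was lost in 9 of 19 alternatives. The adjusted p was 0.207 without DMSO replicate 2, 0.142 without DMSO replicate 3, 0.153 without GSK-A1 replicate 1 and 0.0525 when GSK-A1 replicate 3 was left out, and 0.124 with upper-quartile scaling. CTSA, the cathepsin A that protects NEU1, was at 28.2 to 31.9 CPM with DMSO and 28.4 to 31.5 CPM with GSK-A1, and its log2 fold change of 0.01 ± 0.06 did not pass (95% interval -0.11 to 0.13). Up to 17.7% of its exonic length overlaps NEURL2 on the other strand, which averaged 0.714 CPM.

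NAGLU and SGSH act in the stepwise breakdown of heparan sulfate, NAGLU as an N-acetylglucosaminidase and SGSH as a sulfamidase. NAGLU was at 34.2, 32.4 and 33.3 CPM with DMSO and at 29.9, 26.0 and 29.8 CPM with GSK-A1. Every GSK-A1 library was below every DMSO library, and GSK-A1 replicate 2 was the lowest. NAGLU fell by 14.2% (log2 fold change -0.22 ± 0.06, edgeR adjusted p = 0.0113), and the call was lost in 3 of 19 alternatives. These were the fit without DMSO replicate 1 (adjusted p = 0.0692), the edgeR test against a fold of 1.1 (adjusted p = 0.186) and the threshold of 0.01. Without GSK-A1 replicate 2 its change was -0.15 and was called. Part of it (12.6% of its exonic length) overlaps the same-strand gene AC067852.1, which had no counts. SGSH was at 48.01, 48.8 and 52.0 CPM with DMSO and at 46.8, 41.4 and 46.3 CPM with GSK-A1. Its groups did not overlap either, and GSK-A1 replicate 2 was again the lowest. Its log2 fold change of -0.14 ± 0.05 missed the threshold (edgeR adjusted p = 0.0594). It passed with upper-quartile scaling (-0.18, adjusted p = 0.0218), with library totals only (adjusted p = 0.0472), with library weights in limma-voom (adjusted p = 0.0416) and with the replicate number as a block (-0.15, adjusted p = 0.0343). Without GSK-A1 replicate 2 its change was -0.08 (adjusted p = 0.111), and it was not called with any 1 library left out.

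PSAP encodes prosaposin, the precursor of the saposins that help hydrolases reach sphingolipids. It stood at 599, 597 and 599 CPM with DMSO and at 652, 622 and 615 CPM with GSK-A1. The DMSO libraries were tightly grouped and all below the GSK-A1 libraries, of which replicate 1 was the highest. The log2 fold change was 0.07 ± 0.03 (95% interval 0.0048 to 0.14), not called by edgeR (adjusted p = 0.114), and without GSK-A1 replicate 2 it was called at 0.09 (adjusted p = 0.0110). It was also called with library weights (0.10, adjusted p = 0.00442) and after removal of the GC trend (0.11, adjusted p = 0.0105).

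The other hydrolases had overlapping groups and were not called. They were the aspartic protease cathepsin D (CTSD), the cysteine protease cathepsin L (CTSL), the beta-hexosaminidase subunit HEXA, the tripeptidase TPP1, the acid lipase LIPA and the acid ceramidase ASAH1. Their log2 fold changes ran from -0.04 (CTSD) to 0.03 (TPP1), and each 95% interval lay between -0.15 and 0.13. With the GC trend removed, ASAH1 was called lower (-0.09, adjusted p = 0.0489). LIPA had its highest library, 85.0 CPM, in GSK-A1 replicate 2, against 75.7 to 80.7 CPM in the other 5. CTSD shares 41.7% of its exonic length with AC068580.4 and TPP1 shares 11.6% with AC091564.7, both annotated on the same strand and nearly without counts, so reads of these 2 members may have been lost or split in counting.

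The 3 members with the highest counts were also summed apart, a choice made after their values were seen. The summed level of the 33 members was 2480 ± 36.7 CPM with DMSO and 2634 ± 28.3 CPM with GSK-A1 (SD, n = 3). GLA, PSAP and CTSB made up 1178 ± 16.1 CPM of it with DMSO and 1325 ± 32.1 CPM with GSK-A1. The other 30 members summed to 1302 ± 20.7 and 1309 ± 16 CPM, a difference smaller than the spread between replicates. The difference in the sum lay in GLA, PSAP and CTSB, of which PSAP was not itself called.

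Among lysosomal membrane proteins, GPNMB had the lowest level per kilobase of the tested members (0.844 ± 0.088 CPM per kb with DMSO) and the largest fold change. GPNMB is a transmembrane glycoprotein of melanosomes and lysosomes that responds to MITF and TFE3 in other cells. It had 117, 98 and 88 counts with DMSO and 79, 55 and 52 counts with GSK-A1, or 2.44, 2.15 and 2.66 CPM against 1.70, 1.61 and 1.44 CPM. The highest GSK-A1 library was below the lowest DMSO library. GPNMB fell by 0.59 ± 0.14 on the log2 scale (95% interval -0.89 to -0.29, edgeR adjusted p = 0.00701), and its call held under all 19 alternatives run. Of the melanocyte markers, TYR and MLANA had no counts, and the summed level of the 4 markers was 1.93 to 2.19 CPM with DMSO and 1.52 to 2.25 CPM with GSK-A1. The 3 osteoclast markers summed to 0.29 to 0.36 CPM with DMSO and 0.06 to 0.31 CPM with GSK-A1. The part of either list in the GPNMB value was not tested.

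The abundant membrane glycoproteins LAMP1 and LAMP2 and the calcium channel MCOLN1 were not called. LAMP1 was at 67.3 to 74.2 CPM with DMSO and 65.2 to 69.3 CPM with GSK-A1, and LAMP2 at 132 to 139 and 132 to 143 CPM. Their 95% intervals for the log2 fold change were -0.16 to 0.04 and -0.09 to 0.09. MCOLN1, at 11.9 to 14.3 and 11.98 to 14.98 CPM, was less precisely measured (-0.12 to 0.24), and its log2 fold change of 0.06 ran from -0.02 (GSK-A1 replicate 3 left out) to 0.14 (DMSO replicate 1 left out), with 0.13 when GSK-A1 replicate 2 was left out.

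The V-ATPase has a membrane sector (V0) through which protons pass and a cytosolic sector (V1) that hydrolyses ATP. Of its 6 members here, ATP6V0D1 was called. ATP6V0D1, the V0 subunit that couples to the central stalk, was at 37.3, 33.4 and 33.6 CPM with DMSO and at 30.4, 29 and 31.01 CPM with GSK-A1. All 3 GSK-A1 libraries were lower than any DMSO library, and DMSO replicate 1 stood above the other two DMSO libraries. ATP6V0D1 fell by 13.3% (log2 fold change -0.21 ± 0.05, edgeR adjusted p = 0.0122), and without DMSO replicate 1 the change was -0.15 (adjusted p = 0.0935). Its call was lost in 3 of 19 alternatives, that fit, the edgeR test against a fold of 1.1 (adjusted p = 0.225) and the threshold of 0.01. The V0 subunits ATP6V0A1 and ATP6V0E1 had overlapping groups, with log2 fold changes of -0.01 ± 0.05 and -0.07 ± 0.04.

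In the cytosolic sector, ATP6V1H, the regulatory H subunit, was at 28.2, 29.4 and 27.7 CPM with DMSO and at 30.4, 32.95 and 29.7 CPM with GSK-A1. The groups did not overlap, by a narrow margin, with GSK-A1 replicate 2 the highest. Its log2 fold change of 0.12 ± 0.05 was not called (edgeR adjusted p = 0.110), and was 0.08 without GSK-A1 replicate 2. The catalytic subunit ATP6V1A was highest in GSK-A1 replicate 2 at 91.1 CPM, beside 80.8 to 84.2 CPM in the other 5 libraries (log2 fold change 0.05 ± 0.05, and 0.0066 without GSK-A1 replicate 2). The nucleotide-binding subunit ATP6V1B2 was at 91.4 to 96.1 CPM with DMSO and 89.9 to 92.2 CPM with GSK-A1 (-0.05 ± 0.04), and was called lower after removal of the GC trend (-0.10, adjusted p = 0.0343).

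Folliculin (FLCN) and its partners FNIP1 and FNIP2 activate RRAGC and RRAGD, the Rag GTPases that bring TFEB and TFE3 to the lysosome. FLCN was at 21.0, 22.5 and 21.4 CPM with DMSO and at 24.8, 22.6 and 25.7 CPM with GSK-A1. GSK-A1 replicate 2, at 22.56 CPM, lay just above the highest DMSO library at 22.53 CPM. FLCN was called higher, at 0.17 ± 0.06 in log2 units (edgeR adjusted p = 0.0456), and this was the least stable call, lost in 12 of 19 alternatives. Leaving out 1 library gave an adjusted p of 5.54e-04 without GSK-A1 replicate 2. It gave 0.178, 0.0728 and 0.138 without DMSO replicates 1, 2 and 3, and 0.120 and 0.135 without GSK-A1 replicates 1 and 3. With upper-quartile scaling the adjusted p was 0.125. FLCN also overlaps the same-strand gene AC055811.2 over 11.9% of its exonic length, and that gene averaged 3.3 counts.

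The 2 folliculin partners and the 2 Rag GTPases were not called. FNIP1 was at 24.7 to 25.0 CPM with DMSO and 24.0 to 27.7 CPM with GSK-A1, and FNIP2 at 39.6 to 41.0 and 39.7 to 42.9 CPM. RRAGC was at 13.8 to 15.3 and 14.7 to 16.2 CPM, and RRAGD at 70.4 to 74.8 and 70.4 to 84.5 CPM. For all 4 the highest of the 6 libraries was GSK-A1 replicate 2. Without it, the log2 fold changes were -0.03 for FNIP1, -0.01 for FNIP2, -0.0018 for RRAGC and -0.02 for RRAGD. RRAGC shares 22.9% of its exonic length with AL139260.2, which had no counts.

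TFE3, on chromosome X, was the most abundant of the 3 transcription factors at 15.1 ± 0.87 CPM per kb in DMSO, followed by TFEB at 3.02 ± 0.23 and MITF at 1.58 ± 0.09 CPM per kb. TFE3 was at 53.3, 48.3 and 53.4 CPM with DMSO and at 66.8, 60.0 and 65.9 CPM with GSK-A1. No GSK-A1 library fell to the level of any DMSO library. Mean TFE3 mRNA rose from 51.7 ± 2.96 CPM to 64.2 ± 3.70 CPM (SD, n = 3). In log2 units the rise was 0.32 ± 0.05 (95% interval 0.21 to 0.43, edgeR adjusted p = 5e-04), the largest among the tested members. Its call held under all 19 alternatives run, with adjusted p of at most 0.0110. TFEB was at 8.28, 7.14 and 8.06 CPM with DMSO and at 8.39, 9.75 and 8.77 CPM with GSK-A1. Its groups did not overlap, but DMSO replicate 1 and GSK-A1 replicate 1 were almost equal. The log2 fold change of 0.19 ± 0.08 did not pass (95% interval 0.01 to 0.37, edgeR adjusted p = 0.114), nor in any of the 19 alternatives, where the smallest adjusted p was 0.0512. Its change was 0.13 with DMSO replicate 2 left out and 0.14 with GSK-A1 replicate 2 left out. MITF, the family's melanocyte factor, was at 7.18 to 8.03 CPM with DMSO and 7.74 to 8.63 CPM with GSK-A1 (log2 fold change 0.10 ± 0.08, adjusted p = 0.379).

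**Figure D3:**
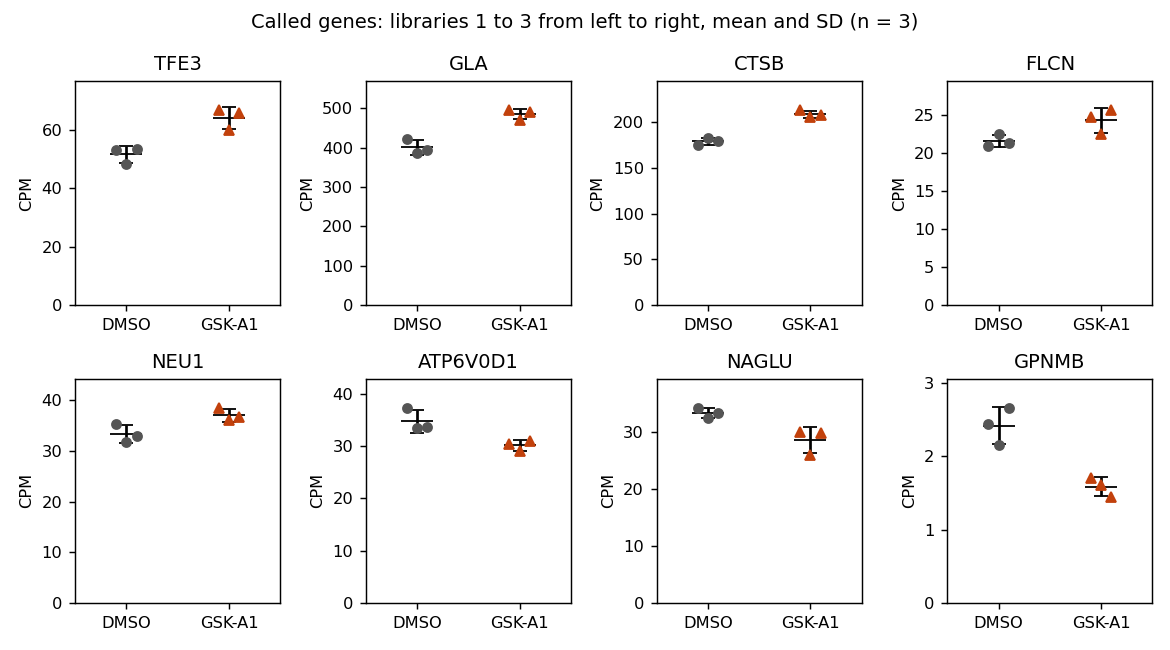
TMM-scaled CPM of the 8 called members in each of the 3 DMSO and 3 GSK-A1 libraries (points), with group means ± SD; each vertical axis starts at 0. In all 8 panels the 2 groups do not overlap, beside 40.5% of all tested genes, and the members were picked by a test on the same libraries. The distance between the groups is small beside the level, except in GPNMB, which is near 2 CPM.

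Because library size cancels in a ratio of genes measured in the same library, paralogs were also compared as log2 ratios of counts, which do not correct for gene length. The TFEB to TFE3 log2 ratio was -2.69, -2.75 and -2.73 with DMSO and -2.99, -2.62 and -2.91 with GSK-A1. GSK-A1 replicate 2 was above all DMSO libraries and the other two GSK-A1 libraries were below them. The difference of -0.12 (exact two-sided permutation p = 0.4, Benjamini-Hochberg adjusted 0.9 over 3 ratios) was within the spread between replicates, and without GSK-A1 replicate 2 it was -0.23. The RRAGD to RRAGC log2 ratio was 2.29 ± 0.07 with DMSO and 2.31 ± 0.07 with GSK-A1 (exact permutation p = 0.7, adjusted 0.9). The FNIP2 to FNIP1 log2 ratio was 0.69 ± 0.03 and 0.68 ± 0.05 (exact permutation p = 0.9, adjusted 0.9). With 3 libraries against 3, no p below 0.1 was possible.

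Of the 23 members that were not called, 20 had a 95% interval for the log2 fold change within 0.25 of 0. The widest bounds were -0.25 for SGSH and 0.37 for TFEB. Missing the threshold does not show that these members did not change, and each interval gives the sizes that its data leave possible.

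To place the members among the rest of the pathway, 6 further lists were counted, 172 tested genes in all. Of these, 20 were called higher and 20 lower (23.3%), beside 22.9% of all genes called. Their median log2 fold change was 0.01. The counts of each list stand beside 12% of all genes called higher and 10.9% called lower. Of 39 tested other soluble lysosomal proteins, 3 rose and 5 fell (5 called in all without DMSO replicate 3). GM2A, the activator that presents GM2 ganglioside to hexosaminidase, fell from 34.1 ± 1.78 to 26.0 ± 2.57 CPM (-0.39 ± 0.07 in log2 units, edgeR adjusted p = 7.86e-04). The legumain protease LGMN rose by 0.21 ± 0.04 on the log2 scale and the sulfatase ARSG fell by 0.35 ± 0.08.

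Of 30 tested other membrane proteins, 4 rose and 1 fell (9 called in all without GSK-A1 replicate 3). NPC1, which moves cholesterol out of the lysosome, rose from 51.7 ± 2.48 to 65.6 ± 0.81 CPM (0.34 ± 0.04 in log2 units, edgeR adjusted p = 6.5e-05). The sialic acid transporter SLC17A5 rose by 0.19 ± 0.04 on the log2 scale, and the calcium- and sodium-permeable channel TPCN2 fell by 0.48 ± 0.09. Of 24 tested other V-ATPase subunits and assembly factors, 3 rose and 1 fell (7 called in all without GSK-A1 replicate 2). ATP6V0E2, the paralog of ATP6V0E1, fell from 46.3 ± 0.70 to 37.4 ± 2.24 CPM (-0.31 ± 0.05 in log2 units, edgeR adjusted p = 4.04e-04). The TLDc-domain proteins NCOA7 and OXR1, which bind the V-ATPase, rose by 0.19 ± 0.04 and 0.20 ± 0.05. With members and other genes together, ATP6V0D1 and ATP6V0E2 fell among 8 tested V0 genes (25% called, beside 22.9% of all genes). The other 6 were not called. Among them ATP6V0C and TCIRG1 had few counts and wide 95% intervals, -0.31 to 1.12 and -0.73 to 0.35. Among 11 tested V1 genes, ATP6V1C1 (0.16, adjusted p = 0.0215, chosen after its value was seen) rose (9.1% called) and the other 10 were not called. These counts are too small to set the sectors apart from all genes.

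Of 37 tested genes of Rag, Ragulator and mTORC1 control, 2 rose and 9 fell (29.7% called, beside 22.9% of all genes, of which 12% were higher and 10.9% lower). The number called was 5 without DMSO replicate 1 or without DMSO replicate 3, 7 without GSK-A1 replicate 1 and 17 when GSK-A1 replicate 2 was left out. RHEBL1, a paralog of the mTORC1 activator RHEB, rose from 2.25 ± 0.27 to 4.44 ± 0.12 CPM (0.99 ± 0.11 in log2 units, edgeR adjusted p = 2.1e-05). The mTOR complex subunit MLST8 fell by 0.22 ± 0.04 and the leucine sensor SESN2 by 0.21 ± 0.04 on the log2 scale. The list mixes activators and inhibitors of mTORC1, and the counts do not give a direction of its activity.

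Of 22 tested genes for mannose 6-phosphate tagging and sorting, 4 rose and 2 fell. With DMSO replicate 2 left out, 2 were called. With DMSO replicate 1, with DMSO replicate 3 or with the first GSK-A1 library left out, 3 were called. CLN6 and CLN8 are endoplasmic reticulum proteins that work together in sending hydrolases to the Golgi apparatus. CLN6 fell from 44.5 ± 0.67 to 32.7 ± 2.90 CPM (-0.44 ± 0.06 in log2 units, edgeR adjusted p = 5.9e-05), while CLN8 rose from 25.1 ± 1.16 to 30.3 ± 2.69 CPM (0.27 ± 0.06, adjusted p = 0.00567, and 0.0543 without DMSO replicate 2). AP1S2, a subunit of the AP-1 sorting adaptor, rose by 0.32 ± 0.05.

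Of 20 tested genes that control the TFEB family, 4 rose and 2 fell (3 called in all without DMSO replicate 3 or without GSK-A1 replicate 1). YWHAH, a 14-3-3 protein of the group that holds phosphorylated TFEB in the cytoplasm, rose from 103 ± 1.39 to 130 ± 9.58 CPM (0.33 ± 0.05 in log2 units, edgeR adjusted p = 1.53e-04). The repressor BHLHE41 rose by 0.31 ± 0.07 and the calcineurin subunit PPP3CC by 0.22 ± 0.05 on the log2 scale.

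**Figure D4:**
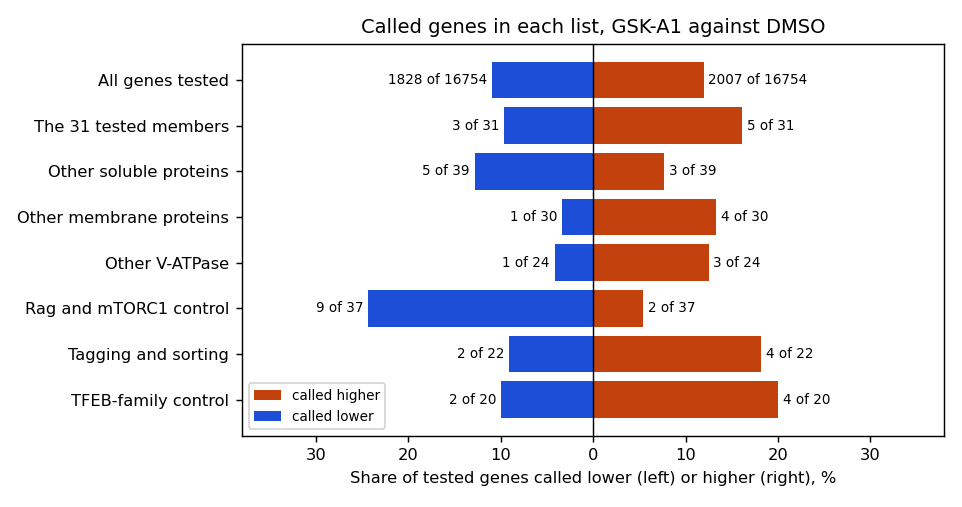
Share of tested genes called higher (right, orange) and lower (left, blue) with GSK-A1 among all genes, the 31 tested members and the 6 further lists, with the counts beside each bar. The members' bars, 5 higher and 3 lower, are drawn next to those of all genes, 2007 higher and 1828 lower of 16754. The lists are short, so a few genes set the length of a bar.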

How the data were processed

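Poly(A) status and strand setting of the counting were not given in the sources used here. Per the labels' protocols, RNA from frozen cells was made into libraries with a stranded Illumina kit, and all 6 libraries carry the same lanes. The authors deposited whole-number counts per gene with no normalization. The submitters' processing notes name cutadapt 5.1, STAR 2.7.11b, featureCounts, Subread 2.1.1, DESeq2 1.38.0 and GRCh38.p13, with no order, and the annotation release was not given in the sources used here. Gene length, GC content and overlaps came from GENCODE release 29, and the counts may rest on another annotation.

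Groups and replicate numbers came from the labels. Genes were kept by filterByExpr in edgeR 4.0.16 (R 4.3.3; smallest count 10, smallest total 15), scaled by TMM and tested with the robust quasi-likelihood F test on all 6 libraries. The Benjamini-Hochberg adjustment covered all 16754 tested genes, with calls made below 0.05. Standard errors were taken as the log2 coefficient over the root of its F statistic. The common biological coefficient of variation was 4.06%. Totals of 33040178 to 47777233 counts carry no molecular identifiers, so counting limits cover sampling of reads only and errors come from replicates. Paralog ratios used counts plus 0.5 and an exact permutation test. The code was tested on simulated counts.

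The 19 alternatives were RLE, upper-quartile or no library factors, no filter or 1 CPM in 3 libraries, a replicate block, DESeq2 1.42.0, limma-voom (limma 3.58.1) with and without library weights, legacy edgeR settings, removal of each library's GC trend (loess, span 0.3), an adjusted p under 0.01, a test against a fold of 1.1, and 6 fits that each left out 1 library. Every member was named. From each of the 6 other lists, up to 3 called genes with the smallest p-values and no overlap between groups were named. The members, lists and tests were chosen with earlier results of these data known. Promoters came from RefSeq tables for GRCh38.p14, and members without an entry were not looked for elsewhere.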

Additional observations from a re-analysis of the deposited data

How the results depend on the processing

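GLA, TFE3 and GPNMB kept their calls in all 19 alternatives. Of 931 values for 49 genes, 835 kept their direction and side of the threshold, 37 lost a call, 9 gained one and 50 changed sign. The genes pooled here were the tested members and the called genes named from the other lists. The latter were picked for small p-values and groups without overlap in the same libraries, which favours stable calls. The pooled counts therefore do not measure how stable the member results were. Every sign change concerned a member that was not called. The number of genes called was 1100 (3 members) against a fold of 1.1, 1871 (4 members) at an adjusted p under 0.01, and 2163 to 4890 (5 to 9 members) when 1 library was left out. It was 3097 (6 members) with DESeq2, 4248 (11 members) after removal of the GC trend and 5602 (10 members) in limma-voom with library weights. The members' median was -0.0181 with upper-quartile factors. The replicate numbers showed no clear pairing of the samples, as deviations of same-numbered libraries correlated at only 0.0109, 0.0190 and 0.0323. For GSK-A1 replicates 2 and 3 the same-numbered DMSO library gave the highest correlation. Replicate 1 of GSK-A1 correlated slightly more with DMSO replicate 2 (0.0117). With the replicate block, 4127 genes and 9 members were called.

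Values that changed sign, as log2 fold changes, were these. Upper-quartile factors gave CTSA -0.0309, TPP1 -0.0072, LIPA -0.0400, LAMP2 -0.0393, FNIP1 -0.0129, FNIP2 -0.0181 and RRAGC -0.0029. Library totals only gave LIPA -0.0066 and LAMP2 -0.0062, and the 1 CPM filter gave LIPA -0.0059 and LAMP2 -0.0053. With no filter CTSL was 0.0015, and in limma-voom LIPA was -0.0011. Library weights gave CTSL 0.0148, HEXA 0.0115, LIPA -0.0409, LAMP2 -0.0219, ATP6V0A1 0.0244, FNIP1 -0.0286, FNIP2 -0.0086, RRAGC -0.0113 and RRAGD -0.0121. Removing the GC trend gave CTSD 0.0378, CTSL 0.0138, LIPA -0.0328, LAMP2 -0.0763, ATP6V0A1 0.0163, FNIP1 -0.0384 and FNIP2 -0.0094. Leaving out 1 library gave -0.0292 to 0.0116 for CTSL, -0.0319 to 0.0172 for HEXA, -0.0465 to 0.0356 for LIPA, -0.0515 to 0.0417 for ATP6V0A1, -0.0134 to 0.0714 for RRAGC and -0.0328 to 0.0292 for LAMP2. It gave -0.0151 to 0.1393 for MCOLN1, -0.0320 to 0.0544 for CTSA, -0.0314 to 0.0771 for FNIP1, -0.0094 to 0.0503 for FNIP2, -0.0240 to 0.1111 for RRAGD and -0.0233 to 0.0011 for ASAH1. The cause was not tested. The median standard error of the members was 0.05 on the log2 scale. In the main edgeR test on all 6 libraries no member with a change smaller than 0.15 was called. Smaller changes were called elsewhere, as PSAP at 0.0880 without GSK-A1 replicate 2 and ASAH1 at -0.0943 after removal of the GC trend. In the other lists, PPT1 was called at 0.12 in the main test. CTSF and CTSZ had too few counts to test.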
